A study of Trichoderma reesei with 8 samples.

Results

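Glucose was added to straw cultures of *Trichoderma reesei* QM6a, and the transcripts present 5 h later are described here gene by gene. They are compared with those of straw cultures sampled at 24 h, without added glucose. The comparison rests on 2 libraries taken 5 h after glucose and 3 straw libraries, 5 of the 8 libraries of the series, and on all 9126 gene models. The 65 genes that the study lists as highly induced by straw, 33 of them genes of carbohydrate-active enzymes (CAZy), were set aside, which leaves 9061 genes. *T. reesei* is a filamentous ascomycete that secretes cellulases and hemicellulases and is grown industrially for them, and QM6a is the wild-type strain. All cultures were started from conidia in minimal medium with 1% glucose and grown for 48 h. The straw cultures were then washed, moved to minimal medium with 1% wheat straw as the sole carbon source and kept there for 24 h. The 5 h cultures had the same history and then received glucose to 1% while the straw was still present. Glucose was thus added to an induced culture and did not replace the straw. No straw culture without glucose was sampled at the same later time, so glucose and 5 more hours of culture cannot be told apart. The remaining 3 libraries, from the 48 h glucose stage, are quoted beside named genes for orientation and were not compared with the 5 h libraries by a test. The paper describes the cultures as independent, while the labels do not say so, and p-values measure the spread between these libraries whatever its source.

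Filamentous fungi prefer glucose to almost any other carbon source. When glucose is present, the repressor CRE1 (CreA in *Aspergillus*) binds promoters of genes for plant cell wall degradation, alternative sugar uptake and their regulators, a response known as carbon catabolite repression. Starved or poorly fed hyphae also resume growth when sugar returns, which in fungi generally calls for ribosomes, mitochondrial respiration and amino acid synthesis. A steady-state RNA-seq library shows the outcome of synthesis and decay together, since a transcript can only disappear within hours if it is also degraded.

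The libraries were shallower after glucose: the counted sense reads came to 798550 and 950244 at 5 h, against 2473359 to 2997433 on straw. Both 5 h libraries also placed fewer reads on genes, 10.2 and 7.38 for every 100 reads of the library total behind the authors' RPKM, against 18.2 to 20.2 on straw. In 48 h glucose this was 10.1 to 12.2, and the source of the difference was not tested. Because this difference moves every fold change, counts and gene groups are given under 2 scalings, while values of single genes are by TMM unless a second value is given. TMM, edgeR's default, compares each gene with the bulk of the other genes in the same library, and over the 7211 genes tested the median log2 fold change was then -0.04. Scaling by the RPKM library totals moved that median to -1.31, and every gene shifts down with it. Bulk RNA gives relative levels, so fewer cells and less RNA per cell cannot be told apart here. The detection limit was set at 3 reads in each of the 5 h libraries, which is 3.801 and 3.534 CPM (read counts scaled to a common library size by TMM) in libraries 1 and 2, and what was left of a gene at or under it is an upper bound that covers counting error only.

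Glucose was followed by a broad change of the transcriptome outside the listed genes. Of 7146 such genes that passed the filter on low counts, 2055 were higher and 2103 lower at 5 h (edgeR's quasi-likelihood test, Benjamini-Hochberg adjusted p below 0.05), 2988 were not called, and 1915 had too few reads to be tested. Over all 7211 genes tested, 28.5% were called higher and 30.0% lower, 58.5% in either direction. The 2 conditions did not overlap for 2007 of the higher and 2099 of the lower genes, where 73.4% of all genes tested did not overlap. With the RPKM library totals the calls outside the listed genes became 443 higher and 4786 lower, where 6.14% and 67.3% of all 7211 genes tested were called higher and lower, so the share of calls that were higher went from 49.4% to 8.47%. All 443 of those higher genes were also higher by TMM, all 2103 genes lower by TMM stayed lower, and 175 genes that TMM called higher were called lower. Genes named below as rising keep their sign under both scalings unless it is said otherwise. With 2 libraries against 3 an exact permutation test of a single gene cannot go below p = 0.1, so the calls depend on the spread shared across genes and conditions.

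**Figure D1:**
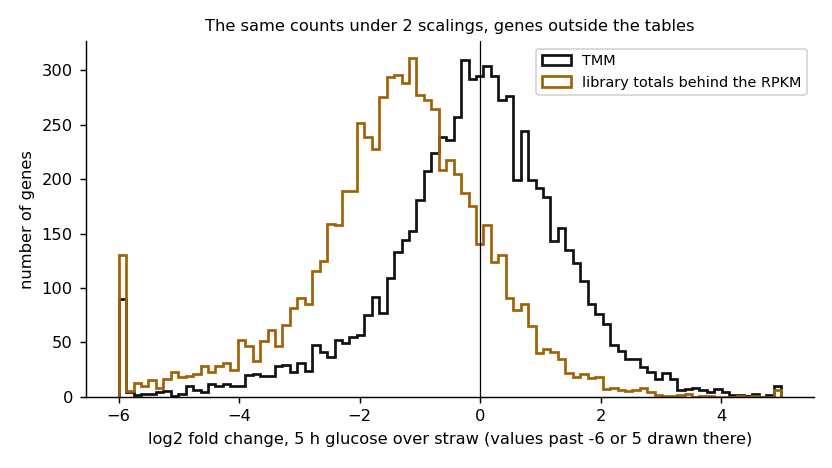
Number of genes outside the listed set (vertical axis) by log2 fold change of 5 h glucose over straw (horizontal axis), from the same counts under TMM and under the RPKM library totals, with values past -6 or 5 drawn there. The second curve lies to the left of the first; the medians over all genes tested were -0.04 and -1.31.

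Measured as shares of the counted reads, the change was nearly identical in both 5 h libraries. Such shares stay close to TMM, whose factors ran from 0.893 to 1.06 over the 8 libraries. They do not reflect the lower share of reads on genes at 5 h. The 2055 higher genes took 23.8%, 22.7% and 23.8% of the reads of the straw libraries and 65.4% of each 5 h library. The 2103 lower genes took 29.1% of each straw library and 9.78% and 9.83% of the 5 h libraries. In 48 h glucose the same sets took 49.0% to 50.5% and 16.1% to 17.0%. These sets were chosen on the straw and 5 h libraries, so the shares describe the size of the change and do not test it.

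**Figure D2:**
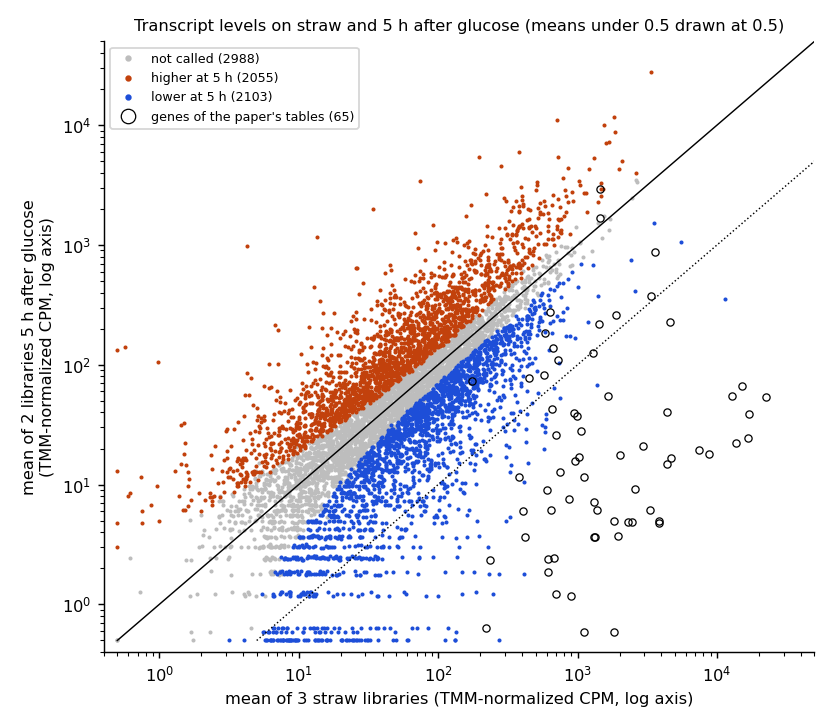
Mean TMM-normalized CPM of each tested gene in the 3 straw libraries (horizontal axis) and in the 2 libraries 5 h after glucose (vertical axis), both on log axes; the solid line marks equal levels and the dotted line 10% of the straw level. The 2103 lower genes outside the listed set lie mostly between the lines, while most of the 65 listed genes (open circles) lie below the dotted line.

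The fall outside the listed genes was partial. The median lower gene kept 38.9% of its straw level (middle 50% of genes, 23.6% to 52.8%), with genes at the detection limit entered at their upper bound. Of the 2103 lower genes, 10 were under 2% of straw, 145 between 2% and 10%, 406 between 10% and 25%, 910 between 25% and 50%, and 631 between 50% and 100%, and the bound of 1 gene lay above 100%. The median was 37.4% in library 1 alone and 38.8% in library 2 alone, over genes that had been called lower on these same libraries. By the plain ratio of mean RPKM, in which genes at the detection limit are not raised to a bound, the same genes kept a median of 15.3%. The 63 listed genes that were lower kept a median of 0.89%, and 43 of them were under 2%; those genes had been selected for high straw levels in the same straw libraries, so no test was made of this contrast.

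How small a share could be seen depended on a gene's straw level. A share as small as 2% could have been seen for 416 of the 2103 lower genes, and 10 of them were under it. For 1493 genes a share of 10% could have been seen, and 154 were under it. At 5 h, 325 of the lower genes were at the detection limit and 71 had no read in either library. Grouped by mean straw RPKM, which corrects for transcript length, the median share left was 34.1% below 5 RPKM, 42.5% from 5 to 20, 40.01% from 20 to 50 and 35.1% at 50 and above. Genes under 10% made up 2.19%, 7.57%, 14.7% and 13.7% of the lower genes in these classes, and 248 of the 594 lower genes below 5 RPKM were at the detection limit, so their median holds many upper bounds. Genes with at least 50 RPKM on straw were called higher in 51.4% of cases and lower in 22.9%, against 26.7% and 22.01% below 5 RPKM. The listed genes, selected in the paper for a straw RPKM above 50 and strong induction, are left out of these classes. Of them 63 were lower, so the class at 50 RPKM and above lacks many genes that fell.

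**Figure D3:**
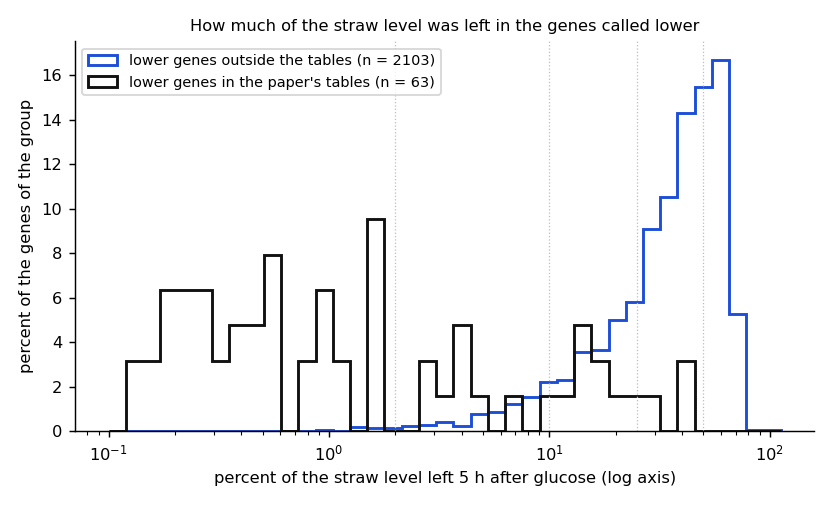
Percent of the straw level left 5 h after glucose (horizontal axis, log) for the genes called lower, as a percentage of each group (vertical axis), with genes at the detection limit at their upper bound. The 2103 genes outside the listed set have most of their mass between 25% and 100% with a median of 38.9%, and 43 of the 63 listed genes lie below 2%; dotted lines mark 2%, 10%, 25% and 50%.

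Of the 10 lower genes with less than 2% left, 2 are annotated, a transporter and a glycoside hydrolase. The transporter, a member of the major facilitator superfamily (MFS) of membrane carriers with no substrate named, has transcript ID 56684 (model e_gw1.3.731.1, scaffold 3) and was counted at 218, 403 and 202 CPM in straw libraries 1, 2 and 3 and had no read in either 5 h library. This was at least 74.8-fold lower than on straw, with at most 1.34% left (edgeR adjusted p = 3.2e-09), and the 48 h glucose libraries held 0.58, 0.677 and 0.758 CPM. Straw library 2 was the highest of the 3, and no straw library came near the 5 h libraries. The GH30 family glycoside hydrolase 69276, in a family of xylan- and glucan-cleaving enzymes, stood at 187, 194 and 183 CPM on straw and at 2.53 and 0 CPM at 5 h, far below every straw library, which leaves at most 1.95% (adjusted p = 4.7e-10 by edgeR). The GH2 family glycoside hydrolase 76852 had 164, 74.9 and 160.5 CPM on straw, where library 2 was low, and no read at 5 h, at most 2.75% left and at least 36.3-fold lower. The maltose permease-like MFS transporter 65191 had 123, 151 and 127 CPM on straw and 0 and 1.18 CPM at 5 h, and at most 2.74% of it was left.

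The other 8 genes under 2% carry no annotation in the supplementary tables used here and were looked at after their values were seen. The lowest upper bound belonged to fgenesh5_pg.C_scaffold_13000017 on scaffold 13, an unannotated model of 2783 bases, with 408, 429 and 401 CPM on straw and 1.27 and 2.36 CPM at 5 h, at most 0.889% left, and bounds do not rank how far genes fell. Among unannotated genes picked by the rule, e_gw1.7.459.1 went from 128, 133 and 135 CPM to no read at 5 h, at least 35.9-fold lower (edgeR adjusted p = 2.4e-09). The 3 straw libraries were closely matched for this gene.

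The 5 lower genes with the highest straw RPKM kept between 16.1% and 46.0%, and 4 of them less than the median of 38.9%. The unknown protein 55272 had a mean RPKM of 748 ± 92.2 on straw and 58.3 ± 5.68 at 5 h (SD, n = 3 and n = 2), and by TMM 19.1% was left (log2 fold change -2.39 ± 0.24, adjusted p = 1.4e-07 in edgeR). The BTB/POZ domain protein 54511, with a fold used for protein-protein contacts, had 2314, 3051 and 2383 CPM on straw and 451 and 381 CPM at 5 h, or 16.1% left. Transcript 81303, annotated with fumarate reductase domains, had 2344, 2596 and 2259 CPM on straw and 712 and 785 CPM at 5 h, close to its 48 h glucose level of 798, 898 and 1003 CPM. The short model estExt_GeneWisePlus.C_10038 kept 46.01%, but its 5 h libraries stood at 356 and 140.2 CPM; 25.4% was left without 5 h library 1, and without library 2 its call was lost (edgeR adjusted p = 0.073).

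A straw RPKM of at least 50 and under 10% left occurred together in 10 genes, which were picked after their values were seen. They include the NADP-dependent D-xylose dehydrogenase 53673, which oxidises the main sugar of straw xylan, at 559, 600.1 and 569.6 CPM on straw and 12.7 and 27.1 CPM at 5 h (3.50% left, log2 fold change -4.84 ± 0.27). Its 48 h glucose level lay above both 5 h libraries, at 90.4, 95.4 and 96.97 CPM. An AAA+-type ATPase, 64710, went from 1387, 1415 and 1363 CPM to 60.8 and 74.2 CPM (4.88% left), and the C1B family cysteine peptidase 65735 from 581, 625 and 569 CPM to 26.6 and 43.6 CPM (5.98% left). The lower gene with the most straw reads, also picked after its value was seen, was the unannotated model estExt_fgenesh5_pg.C_260087 on scaffold 26, at 10806, 12699 and 10998 CPM on straw and 257 and 456 CPM at 5 h (3.10% left). It is also the second longest model of the annotation, at 49818 bases, so its straw RPKM was only 45.6 ± 5.75.

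Gene groups were formed from search words in the annotations of the supplementary tables, which cover 2113 of the 9126 models, so each group holds a part of its pathway. Among MFS and sugar transporters, a family that includes the fungal sugar permeases, 25 of 45 tested members (55.6%) were lower and 11 (24.4%) higher, against 30.0% and 28.5% of all genes tested, with a median log2 fold change of -1.24 against -0.04 over all genes tested. With the RPKM library totals 32 were lower and 3 higher, where 67.3% of all genes tested were lower and 6.14% higher. Those 2 shares also apply to the counts given under that scaling for the groups below. Besides 56684 and 65191, the transporter 67752 had 47.4, 47.3 and 41.4 CPM on straw and at most 8.08% left. Members moved in the other direction too. The permease 68813 had 22.9, 48.9 and 27.8 CPM on straw, 157 and 174 CPM at 5 h and 20.9, 25.05 and 29.5 CPM in 48 h glucose (log2 fold change 2.32 ± 0.25, edgeR adjusted p = 4.3e-07). The MFS transporter 62747 rose 4.94-fold and the galactose permease-like 62380 4.26-fold to 179 and 192 CPM, beside 258, 201 and 231 CPM in 48 h glucose.

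The glycoside hydrolases and esterases outside the listed genes also had more members lower than higher: 22 of 35 tested (62.9%, against 30.0% of all genes tested) were lower and 7 (20.0%, against 28.5%) higher, with a median log2 fold change of -1.24 (27 lower and 3 higher with the RPKM library totals, where 67.3% of all genes tested were lower). The 3 largest falls by the fit were those of 76852, 69276 and the GH75 chitosanase 70341, an enzyme that cleaves chitosan. The chitosanase was weak on straw, at 18.7, 4.27 and 19.3 CPM, and without a read at 5 h, so the depth allowed only the bound of at most 26.03% left. By the rule, 3 rising members are named. The GH18 chitinase 66041 had 14.5, 13.6 and 12.3 CPM on straw and 72.2 and 64.8 CPM at 5 h (5.07-fold), and the GH16 glucanosyltransferase 65406, which remodels cell wall glucan, 35.2, 45.0 and 44.5 and 166 and 104 CPM (3.23-fold, though its call was lost with the RPKM totals, adjusted p = 0.17 by edgeR). The putative GH61 protein 76065, of a family now known as lytic polysaccharide monooxygenases, rose 6.14-fold from a low straw level of 3.44, 8.92 and 4.42 CPM.

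Regulators with a Zn2Cys6 domain, the binuclear cluster DNA-binding domain typical of fungi and shared by activators of cellulase and hemicellulase genes, were lower in 27 of 41 cases (65.9%, against 30.0% of all genes tested) and higher in 1. Their median log2 fold change was -1.11 (-1.08 with members at the detection limit at their bound), and with the RPKM library totals 40 were lower and none higher. The largest fitted fall was that of 65854, at 30.6, 32.6 and 29.7 CPM on straw and no read at 5 h or in 48 h glucose, at most 11.8% left (edgeR adjusted p = 2.9e-06). The regulator 54502 went from 97.5, 95.8 and 87.5 CPM to 2.53 and 8.25 CPM (5.93% left, 2.66% without 5 h library 2), and 121412, the most abundant of the 3, from 440.0, 423 and 447 CPM to 34.2 and 43.6 CPM (8.94% left, log2 fold change -3.48 ± 0.22). The 1 member higher by TMM, 62432, changed sign with the RPKM library totals (log2 fold change 1.07 ± 0.26 and -0.16) and lost its call without 5 h library 1 (edgeR adjusted p = 0.073). Among 22 other transcription regulators 5 (22.7%) were higher and 4 (18.2%) lower (none and 19 with the RPKM totals), and the C2H2 zinc finger regulator 106064 was lowest relative to straw, at 18.02%. CPC1, the cross-pathway control activator of amino acid synthesis, stood at 807, 625 and 755 CPM on straw and 1177 and 1157 CPM at 5 h; its TMM log2 fold change of 0.68 ± 0.19 became -0.56 with the RPKM totals, where it was called lower (edgeR adjusted p = 0.047).

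Regulators known to act on cellulase genes or in carbon catabolite repression were added by name after the calls had been seen, and 2 of them are described. The gene ace1 (75418), a repressor of cellulase genes, had 104, 91.2 and 97.6 CPM on straw and 131 and 91.9 CPM at 5 h, and the ranges overlapped (log2 fold change 0.18 ± 0.21, edgeR adjusted p = 0.47); with the RPKM totals its log2 fold change was -1.03 (adjusted p = 0.0061). The gene crec (64608), whose *Aspergillus* counterpart works with a deubiquitinase in repression, stood at 82.9, 70.6 and 66.7 CPM on straw and 53.2 and 45.9 CPM at 5 h and was not called under TMM (edgeR adjusted p = 0.064), whereas it was with the RPKM totals (log2 fold change -1.82). The gene of CRE1 itself and xyr1, another such regulator, were sought by name but could not be tied to a gene model.

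**Figure D4:**
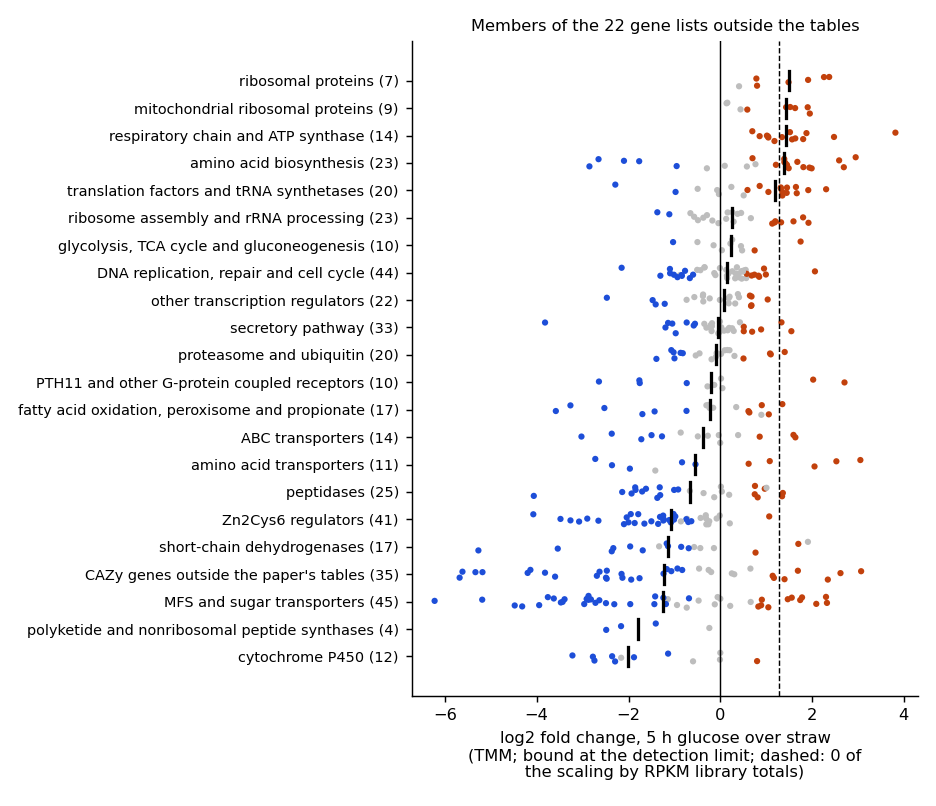
Log2 fold change of 5 h glucose over straw (horizontal axis, TMM) of every tested member of the 22 gene groups (rows, number tested in brackets), coloured orange if called higher, blue if called lower and grey if not called, with the median as a black bar and genes at the detection limit at their bound. Medians run from -2.02 for cytochrome P450 to 1.49 for ribosomal proteins, and members to the left of the dashed line are approximately those that turn negative when scaled by the RPKM library totals.

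In 3 enzyme families more members were called lower than higher, where 30.0% of all genes tested were lower and 28.5% higher. Cytochrome P450 monooxygenases, which hydroxylate secondary metabolites and foreign compounds, were lower in 7 of 12 cases (58.3%) and higher in 1 (9 and none with the RPKM totals), with the strongest fall in 65141, from 46.3, 34.5 and 40.4 CPM to 2.53 and 5.89 CPM (10.7% left, 6.16% without 5 h library 2). Short-chain dehydrogenases were lower in 10 of 17 cases (58.8%) and higher in 2 (14 and none with the RPKM totals). The member 53331 fell the most, from 188, 189 and 197 CPM to 6.33 and 3.53 CPM, with 2.59% left (log2 fold change -5.27 ± 0.34, edgeR adjusted p = 5.5e-10). Polyketide and nonribosomal peptide synthases, which build secondary metabolites, were lower in 3 of 4 cases under TMM and in all 4 with the RPKM totals. The polyketide synthase 65891 kept 17.8%, the nonribosomal peptide synthetase 68204 22.3% and the polyketide synthase 106272 37.7%. For 68204 the share was 7.69% without 5 h library 1 and 36.1% without library 2, and for 106272 it was 24.7% without library 2.

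Catabolic genes without a group stood among the 10 annotated genes with the largest fitted falls, all of them without a single read at 5 h. The alcohol dehydrogenase 68590 had 55.8, 39.96 and 52.8 CPM on straw and at most 7.41% left. Myo-inositol oxygenase (119790), which opens the inositol ring to glucuronate, had 29.1, 32.2 and 27.8 CPM on straw, and the catechol dioxygenase 62165, of a class that cleaves aromatic rings, 23.7, 41.9 and 18.96 CPM. Their bounds were 12.4% and 13.01%, set by the depth and not by any read. The remaining genes of these 10 were the acetyltransferase 33387, the HET and ankyrin domain protein 57112, the G-protein coupled receptor 123806 and the amino acid transporter 56314, with bounds of 11.7% to 16.5%.

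**Figure D5:**
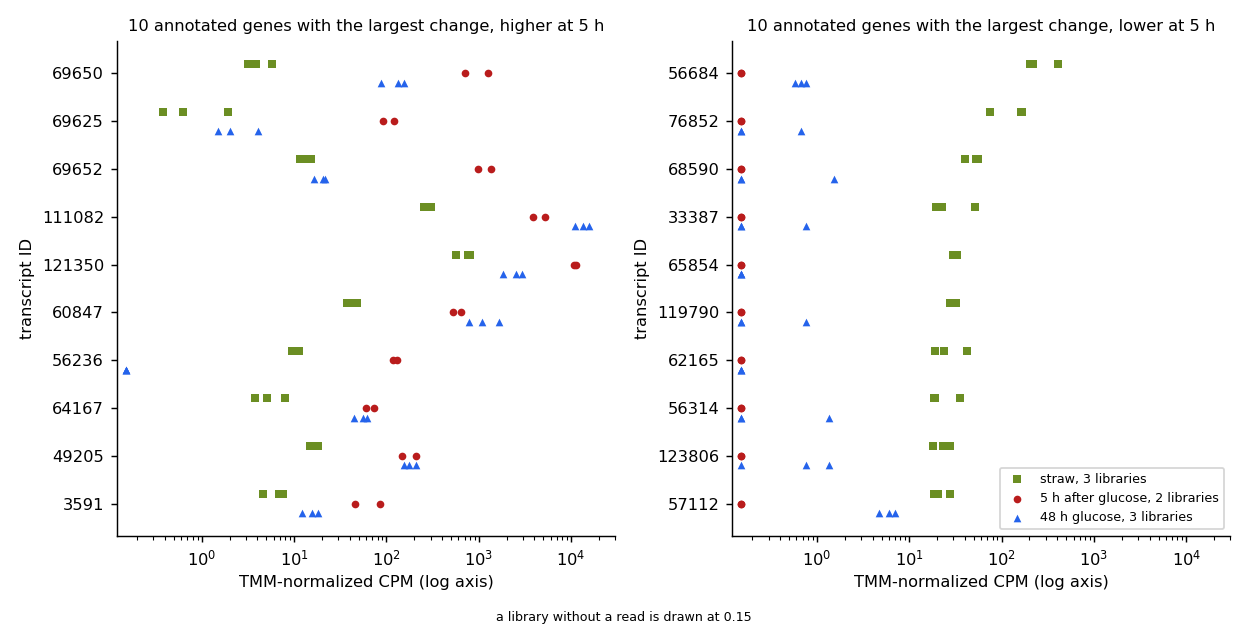
TMM-normalized CPM (horizontal axes, log) in each library of the 10 annotated genes with the largest fitted rise (left) and fall (right), named by transcript ID. Squares mark straw, circles 5 h after glucose and triangles 48 h glucose. Fitted falls of genes without a read at 5 h do not rank how far genes fell. On the right all 5 h libraries are without a read, drawn at 0.15; on the left the 5 h libraries lie above all straw libraries, and 56236 has no read in 48 h glucose.

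Of 17 tested genes for fatty acid oxidation, peroxisomes and propionate, 6 (35.3%) were lower and 5 (29.4%) higher under TMM, close to the 30.0% and 28.5% of all genes tested (13 and none with the RPKM totals). The long-chain fatty acid transporter 62651 went from 125, 87.7 and 119 CPM to 12.7 and 5.89 CPM (8.34% left, 5.22% without 5 h library 1), the acyl-CoA synthetase 54667 from 261, 339 and 283 CPM to 29.1 and 31.8 CPM (10.4% left), and the acetate-CoA ligase 54870 kept 17.4%. Methylisocitrate lyase (66541), of the pathway that clears propionyl-CoA, was 2.55-fold higher under TMM and near 0 on the log2 scale with the RPKM totals (0.07, edgeR adjusted p = 0.83). Glycolysis and the TCA cycle were little represented: of 10 tested members 2 (20.0%) were higher and 1 (10.0%) lower, and 8 were lower with the RPKM totals. The malate dehydrogenase 62153 rose 3.36-fold, from 51.2, 42.7 and 47.7 to 144 and 173 CPM, still far below the 888, 1116 and 1198 CPM of 48 h glucose, and was not called with the RPKM totals (edgeR adjusted p = 0.064). The triose-phosphate isomerase 68606 kept 49.0% and lost its call without either 5 h library, without straw library 1 or 3, with those 2 summed and in DESeq2 (adjusted p = 0.053 to 0.086 over these fits).

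On the rising side, the genes with the largest change include 3 annotated neighbours on scaffold 29. The FAD-binding domain protein 69650 (model e_gw1.29.174.1), a flavin-dependent oxidoreductase by its domain, had 3.82, 5.82 and 3.16 CPM on straw, 702 and 1248 CPM at 5 h and 133, 154 and 87.9 CPM in 48 h glucose. This was a rise of 228-fold (log2 fold change 7.83 ± 0.33, edgeR adjusted p = 5.5e-12), with both 5 h libraries far above the straw libraries. The glyoxylase 69625 (model e_gw1.29.212.1) had 0.382, 1.94 and 0.632 CPM on straw, 92.5 and 120.2 CPM at 5 h and 4.06, 2.03 and 1.51 CPM in 48 h glucose, a 104-fold rise. Its straw level rests on few reads, and without straw library 2 the rise was 176-fold. The O-methyltransferase 69652 (model e_gw1.29.121.1), which transfers methyl groups from S-adenosylmethionine, had 13.8, 15.1 and 11.7 CPM on straw, 987 and 1360 CPM at 5 h and 21.4, 16.2 and 20.5 CPM in 48 h glucose, a 86.8-fold rise. In the order of the RefSeq annotation of assembly v2.0, 69625 lies 5 genes after 69650 and 69652 directly follows it. The unannotated model estExt_GeneWisePlus.C_290016 of the same scaffold, 5592 bases long, was at the detection limit on straw and had 138 and 145 CPM at 5 h, at least 130.3-fold higher (adjusted p = 1.1e-11, edgeR). For 69625, 69652 and this model the 48 h glucose values were 0.758 to 21.4 CPM, so the high level was seen at 5 h and not in the 48 h glucose cultures.

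The largest fitted rise of all belonged to the unannotated model fgenesh5_pg.C_scaffold_5000009 on scaffold 5, with 0.382, 0 and 0.316 CPM on straw and 89.96 and 177 CPM at 5 h, at least 123-fold higher. By TMM, 98 genes rose at least 8-fold and 211 fell at least 8-fold, with bounds used at the detection limit, and 9 of the higher genes were at the detection limit on straw. The methyltransferase 56236 rose 11.9-fold, from 10.3, 11.2 and 9.48 to 118 and 129.6 CPM, and had no read in any 48 h glucose library. ISP4 (64167), related to a fission yeast protein of sexual differentiation in the oligopeptide transporter family, rose 11.9-fold to 73.5 and 60.1 CPM. Formyltetrahydrofolate hydrolase (3591), which supplies formate for purine synthesis in bacteria, rose 10.03-fold, although its 5 h libraries were apart at 84.9 and 45.9 CPM.

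Among abundant transcripts, the highest at 5 h was an unannotated gene, estExt_fgenesh5_pg.C_270120 on scaffold 27, at 3307, 3493 and 3262 CPM on straw and 14454 and 40628 CPM at 5 h. It took 1.43% and 3.63% of all counted reads of the 5 h libraries, library 2 being far above library 1, and both stood above all straw libraries (8.21-fold, log2 fold change 3.04 ± 0.32, edgeR adjusted p = 2.9e-07). Without library 2 the rise was 4.14-fold. The gene 121350, related to the *Aspergillus* protein CipC, had 771, 565 and 807 CPM on straw, 11259 and 10662 CPM at 5 h and 2953, 2502 and 1834 CPM in 48 h glucose, and its mean RPKM went from 339 ± 51.4 to 2218 ± 736. It rose 15.3-fold and the 5 h libraries were close to each other. The unannotated models fgenesh5_pg.C_scaffold_23000017, estExt_fgenesh5_pg.C_190027 and estExt_GeneWisePlus.C_10856 rose 45.96-, 6.41- and 6.41-fold and complete the 5 higher genes with the highest RPKM at 5 h. The glutathione S-transferase 111082, which conjugates glutathione to reactive compounds, rose 16.1-fold, from 300.4, 256 and 290.4 to 3866 and 5199 CPM, and stood higher still in 48 h glucose, at 11028, 15545 and 13402 CPM.

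All 14 tested members of the respiratory chain and ATP synthase list were higher under TMM, against 28.5% of all genes tested, with a median log2 fold change of 1.43; with the RPKM library totals 3 were higher, none lower and the median was 0.19. ATP synthase subunit c (60847), which forms the proton-driven rotor, had 47.4, 37.2 and 40.1 CPM on straw and 649 and 524 CPM at 5 h (14.1-fold, log2 fold change 3.82 ± 0.27, edgeR adjusted p = 1.8e-09), and 1661, 787 and 1096 CPM in 48 h glucose. COQ4 (106150), needed to make the electron carrier ubiquinone, rose 5.57-fold to 376 and 452 CPM, and the cytochrome c oxidase subunit 80288 rose 3.67-fold. Cytochrome c peroxidase (49205), which removes hydrogen peroxide in mitochondria, rose 11.04-fold, from 17.96, 14.7 and 15.5 to 210.3 and 146 CPM.

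Cytosolic ribosomes make the cell's proteins and mitochondrial ribosomes a few subunits of the respiratory chain. Of 7 tested cytosolic ribosomal proteins 6 were higher and none lower, and of 9 mitochondrial ribosomal proteins 6 were higher and none lower (85.7% and 66.7%, against 28.5% of all genes tested); with the RPKM library totals these became 3 higher and 1 lower, and 1 higher and 3 lower. The large-subunit protein gene rpl38 (121372) had 850.5, 849.9 and 854 CPM on straw and 3695 and 5122 CPM at 5 h, a 5.18-fold rise (log2 fold change 2.37 ± 0.23, edgeR adjusted p = 9.8e-08). Expression of rps26 (68909) was 4.79-fold higher, with the 5 h libraries apart at 654 and 258 CPM and a rise of 2.64-fold without library 1, and that of rps12 (21170) 3.77-fold higher. The mitochondrial ribosomal protein genes 69399 and 63269 rose 3.86- and 3.74-fold. Of the mitochondrial members 53350, 3.10-fold higher under TMM, lost its call with the RPKM totals, as did 69399 (edgeR adjusted p = 0.42 and 0.10).

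Translation factors and tRNA synthetases were higher in 13 of 20 cases (65.0%, against 28.5% of all genes tested) and lower in 2 (10.0%), with a median log2 fold change of 1.18; with the RPKM totals 2 were higher and 8 lower and the median was -0.12. The initiation factor subunit 74774 (of eIF3, which scaffolds the initiation complex) rose 4.94-fold, and eIF1A (55969), which helps the small subunit scan for the start codon, went from 404, 343 and 389 CPM to 1395 and 1464 CPM, a 3.78-fold rise. The tryptophanyl-tRNA synthetase 65741 moved the other way and kept 20.5%, at 179, 222 and 170.3 CPM on straw and 26.6 and 50.7 CPM at 5 h, or 13.5% without 5 h library 2. Ribosome assembly and rRNA processing genes had 7 of 23 higher (30.4%, near the 28.5% of all genes tested) and 2 lower (8.70%, against 30.0%), and 1 and 14 with the RPKM totals. TSR2 (79623), a chaperone of a small-subunit protein in yeast, rose 3.79-fold, and the homologue of the small-subunit processome protein UTP7 (65225) 3.49-fold, the latter not called with the RPKM totals (edgeR adjusted p = 0.075). The helicase DBP8 (53972) and the processome protein IMP4 (22611) kept 38.6% and 46.3%.

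Amino acid synthesis genes were higher in 14 of 23 cases (60.9%, against 28.5% of all genes tested) and lower in 5 (21.7%), with a median log2 fold change of 1.39 (5 and 8 with the RPKM totals, median 0.09). Phosphoadenosine phosphosulfate reductase (65410), which reduces sulfate on the way to cysteine and methionine, had 13.0, 13.2 and 13.6 CPM on straw, 95.03 and 111 CPM at 5 h and 108, 111 and 144 CPM in 48 h glucose (7.73-fold, log2 fold change 2.95 ± 0.22, adjusted p = 4.2e-09 from edgeR). The acetylornithine aminotransferase-like gene 63180, of the arginine pathway, rose 6.46-fold to 492 and 829 CPM, and chorismate synthase (23298), which closes the shikimate pathway, 3.97-fold. Against this, the IlvB-type thiamine pyrophosphate enzyme 67639 fell to 15.9% of straw, from 241, 356 and 243 to 34.2 and 54.2 CPM. The gene 65869 fell to at most 13.8%. It is annotated with shikimate kinase, type I 3-dehydroquinase and shikimate/quinate dehydrogenase domains, and its place in this group rests on search words only. The threonine synthase 67446 was at the detection limit at 5 h, at most 23.3% of a weak straw level.

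Uptake of amino acids and export pumps showed no common direction. Of 11 tested amino acid transporters 5 (45.5%) were higher and 5 lower, against 28.5% and 30.0% of all genes tested (2 and 7 with the RPKM totals). The amino acid permease 67806 rose 8.29-fold, from 13.0, 19.4 and 11.7 to 143 and 100.1 CPM, while 56314, 64971 and 66819 were at the detection limit at 5 h, with bounds of 15.1% to 25.5% of their straw levels. ABC transporters, ATP-driven pumps, were lower in 5 of 14 cases (35.7%) and higher in 3 (21.4%; 11 and none with the RPKM totals). The homologue of the yeast mating-factor exporter Ste6p, 62693, fell from 232, 241 and 229 to 27.9 and 29.5 CPM (12.3% left). The pump 56176, annotated as MRP-type, rose 3.11-fold under TMM but was not called with the RPKM totals (edgeR adjusted p = 0.24).

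Members of the protein turnover and secretion groups went in both directions. Against 30.0% lower and 28.5% higher among all genes tested, peptidases were lower in 12 of 25 cases (48.0%) and higher in 6 (24.0%). The proteasome and ubiquitin list was lower in 6 of 20 cases (30.0%) and higher in 4 (20.0%), and the secretory pathway list lower in 8 of 33 (24.2%) and higher in 6 (18.2%), both at or below the shares over all genes. With the RPKM totals 19, 16 and 29 of them were lower and none higher. Transcript 60085, annotated as the alpha subunit of glucosidase II, had the largest change of the secretory list, from 51.6, 60.1 and 43.6 CPM to 2.53 and 3.53 CPM. At most 7.08% was left, and 48 h glucose held no read. Its place in the secretory list rests on that annotation alone, and its function was not tested. The proteasome subunit 55644 (psa5) rose 2.65-fold under TMM and the synaptobrevin snc1 (53601), which drives fusion of secretory vesicles, 2.52-fold, and neither was called with the RPKM totals (edgeR adjusted p = 0.57 and 0.91).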

How the data were processed

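RNA from 8 libraries of *T. reesei* QM6a was sequenced as strand-specific SOLiD reads of 50 bases. The authors mapped them to the unmasked genome, assembly v2.0, and counted uniquely placed sense reads within each annotated gene (HTSeq is named in the submitters' processing notes), so reads from near-identical genes are lost. The deposited files hold these counts, which were tested here, and deposited RPKM values, which were used for levels per length and, through the library totals behind them, as a second scaling. The 65 listed genes were found by matching mean RPKM within 0.005, without using those values as results.

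Counts were fitted with edgeR 4.0.16 (R 4.3.3): filterByExpr, TMM, the quasi-likelihood test, 1 model holding all 8 libraries, contrast 5 h glucose minus straw, and Benjamini-Hochberg adjustment over 7211 genes at 0.05. The percent left is 2 to the power of the log2 fold change, with 3 reads per library as the detection limit. Genes that passed the filter only through their high condition had to differ. On simulated counts for this comparison over 7211 genes, 184 of 200 genes changed 4-fold were recovered with 10 wrong calls. In the libraries themselves 58.5% of the genes tested were called. Recovery with so large a share of changed genes was not tested.

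Named genes had to pass the test, reach 20 counts on average over the 5 libraries and not overlap between conditions. They were the 10 annotated genes and the 3 of any annotation with the largest fitted change each way. The 5 most abundant each way by RPKM and up to 3 members each way of 22 gene lists were added. The lists were built by search words in the annotations. Other genes are said to be chosen after their values were seen. The genes, lists and tests were chosen with earlier results of these data known. Alternatives were DESeq2 1.42.0, Fisher's exact test on pooled counts at p below 0.001, the RPKM library totals, no filter and 5 libraries only. Further ones were a replicate block, straw libraries 1 and 3 summed, and leaving out each library. In several named genes, such as 56684 and 76852, straw libraries 1 and 3 lay close together and library 2 apart, though not in all. Whether libraries 1 and 3 came from separate cultures was not tested, and summing treats them as 1 library.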

Additional observations from a re-analysis of the deposited data

How the results depend on the processing

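Scaling was the choice that mattered. With the RPKM library totals, 443 genes were higher and 4850 lower in place of 2056 and 2166. The median log2 fold change over the genes tested was then -1.31 in place of -0.04. By the ratio of mean RPKM, without bounds at the detection limit, the original 2103 lower genes kept a median of 15.3%. With the library totals the median share of the straw level left was 28.3% over the larger set then called lower, in place of 38.9%. That median share was 37.8% with DESeq2, 40.1% with Fisher's test, 36.5% with straw libraries 1 and 3 summed, 36.8% with a detection limit of 1 read and 43.2% for genes of at least 100 straw counts, each further from 38.9% than the SD of 1.0 between the 5 h libraries. Leaving out 1 library gave 1711 to 2085 higher genes, 1940 to 2177 lower genes, a median share of 34.9% to 39.1% and a median log2 fold change of -0.14 to -0.03. The other alternatives, DESeq2 (1989 higher, 2030 lower), Fisher's test (1890, 2523), no filter (1943, 2373), 5 libraries only (2027, 2174) and straw libraries 1 and 3 summed (1893, 1963), kept both counts within 1.5 times.

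The replicate block gave 1980 higher and 2117 lower genes and a median share of 38.1%. Correlations of deviations between same-numbered libraries ran from -0.026 to 0.153. The deviations of the 2 libraries at 5 h mirror each other, so these values say little about a shared origin of same-numbered cultures. The numbers were not taken as pairs in the main model, and pairing was not tested otherwise.

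Of 133 named genes, 101 kept their call with the RPKM library totals, 14 lost it and 18 that were higher under TMM turned negative. Their log2 fold changes were then -0.40 for 4009, -0.15 for 68026, -0.41 for 65921, -0.17 for 54365, -0.66 for 69141, -0.45 for 110499, -0.16 for 62432, -0.22 for 58853, -0.59 for 53484, -0.56 for 65290, -0.52 for 56966, -0.51 for 65496, -0.12 for 53669, -0.13 for 54454, -0.25 for 66308, -0.34 for 53535, -0.35 for 67107 and -0.41 for 55902. Of these, 69141, 53484 and 65290 were then called lower (edgeR adjusted p = 0.038, 0.04 and 0.047). Apart from that scaling, counts within the gene groups moved by over 1.5 times in several small sets, among them the higher members of the secretory list (3 to 6), DNA replication (4 to 8), CAZy genes (4 to 8), ABC transporters (1 to 3) and short-chain dehydrogenases (0 to 2) and the lower members of ribosome assembly (2 to 6). Without 5 h library 1 or 2, 122 and 123 of the 133 kept their calls, and without 1 straw library 127 to 131. Leaving out a 5 h library leaves 1 in that condition, which is then assumed to vary like the other conditions. Depth at 5 h limits the statements on weak genes, since 325 of the 2103 lower genes were at the detection limit there.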

Other observations

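Genes of DNA replication, repair and the cell cycle, which copy and maintain the genome, went in both directions: 8 of 44 tested were higher and 11 lower under TMM, both below the shares of 28.5% and 30.0% over all genes tested (1 and 32 with the RPKM totals). Subunit 4 of DNA polymerase delta (61551) was the strongest riser, at 33.6, 57.0 and 36.0 CPM on straw and 184 and 168 CPM at 5 h (4.18-fold). The homologue of yeast Rad10p (57198), part of an excision repair nuclease, kept 22.5%, with 5.07 and 7.07 CPM at 5 h.

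Of 10 tested G-protein coupled receptors, membrane proteins that sense the surroundings, 2 were higher and 4 lower, where 28.5% and 30.0% of all genes tested were (2 and 8 with the RPKM totals). Both risers are of the PTH11 type, named for a receptor of the rice blast fungus. Receptor 62462 had 11.8, 19.4 and 13.9 CPM on straw and 97.6 and 99.0 CPM at 5 h (6.53-fold), and 55561 rose 4.07-fold. Another PTH11 receptor, 122795, fell to 29.6% of straw, from 66.5, 62.8 and 68.9 CPM to 19.01 and 20.03 CPM, so members of one receptor type moved in opposite directions in both 5 h libraries.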
